A study of Mus musculus with 6 samples.

Results

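The GABA-A receptor subunit genes *Gabra2*, *Gabra3*, *Gabra4*, *Gabra5*, *Gabrb1*, *Gabrb2* and *Gabrd* were followed in primary mouse neurons in which the potassium channel gene *Kcna1* was activated by CRISPRa. These 7 genes were chosen by name, among 50508 gene symbols listed for every library, and 7 of 7 were above 0 in at least 1 library. The files list 12 other subunit genes of the family, of which 7 were above 0 in at least 1 library.

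All 6 cultures came from newborn C57Bl/6J pups and were transduced with lentivirus carrying a nuclease-dead Cas9 fused to the VP160 activator, driven by the Ef1alpha promoter, which is not restricted to neurons. The 3 sgLacZ cultures (Ctrl-dCas9A) carried a guide against the bacterial LacZ gene, labelled as control, and the 3 sgKcna1 cultures (Kcna1-dCas9A) carried the guide sg19 against the *Kcna1* promoter. The labels give the tissue as hippocampus, whereas the methods describe cortical neurons, and the methods give more than one culture time. The methods state, for the experiments in general, that a minimum of 3 independent repeats was made, but no source used here says whether the 3 libraries of a group came from separate animals or dissections, so the p-values measure the spread between these libraries, which may be technical.

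GABA-A receptors are ligand-gated chloride channels that carry most of the fast inhibition in the brain. Each receptor is a ring of subunits, usually alpha and beta subunits joined by a gamma or a delta subunit. GABA binds between beta and alpha subunits, and the alpha subunit largely sets where the receptor sits and how it responds to benzodiazepines. Receptors with a gamma subunit gather mainly at synapses, while those with the delta subunit, and many with the alpha5 subunit, lie outside synapses and carry a steady tonic current.

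The deposited values are whole numbers that summed to between 999047 and 999717 per library and were read as per-million values rounded to the nearest unit. Read depth is unknown, so counting errors and detection limits cannot be given. QuantSeq makes its tags at the 3' end of transcripts, and the values were not divided by gene length. *Kcna1*, the targeted gene, was listed at 16 in each sgLacZ library and at 68, 47 and 65 in the sgKcna1 libraries, in the direction of the labels. The neuronal markers *Rbfox3*, *Map2*, *Tubb3*, *Snap25*, *Syt1* and *Stmn2* were above 0 in every library, as were the hippocampal genes *Prox1* and *Zbtb20* and the neocortical genes *Cux2*, *Tle4* and *Fezf2*, so that the listed genes did not single out 1 tissue. Summed neuronal markers were 6910 to 8273 in sgKcna1 against 5923 to 6761 in sgLacZ, but this direction came from *Tubb3*, and without it (a sum chosen after its values were seen) they were 3682 to 3925 against 4061 to 4202. Summed excitatory neuron markers were 691 to 755 against 710 to 762, over genes that differed in opposite directions. Of these, 3 of 5, *Slc17a7* among them, were higher with separate groups, as were 8.98% of all genes tested. *Neurod6*, the most abundant, was lower with separate groups. Summed astrocyte markers were lower in sgKcna1 (663 to 692, against 917 to 1034 in sgLacZ, 8 genes, 0 of them at 0 in all libraries), although the groups overlapped for *Gfap* and *Aldh1l1*. Summed oligodendrocyte lineage markers were 40 to 43 against 64 to 96 (7 genes, with *Mog* at 0 throughout). Of these *Mbp* went the other way, at 3, 3 and 2 in sgLacZ and at 7, 4 and 7 in sgKcna1. Summed microglia markers were 53 to 72 against 22 to 25 (8 genes, with *P2ry12* and *Tmem119* at 0 throughout). Whether these cells contribute to the subunit values was not tested, and in bulk RNA fewer cells of a type cannot be told apart from less RNA per cell.

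No subunit gene among the 7 passed the test between sgKcna1 and sgLacZ. With limma on log2(value + 1) and Benjamini-Hochberg adjustment over the 19504 genes above 0 in at least 1 library, 0 of 7 had an adjusted p under 0.05, while 1.16% of all genes tested did (0.349% higher and 0.81% lower). This split of 68 higher and 158 lower genes turned with the scaling, to 962 and 757 with median-of-ratios, 1226 and 832 with upper-quartile and 1001 and 810 with TMM factors, and was 117 and 84 without the intensity trend of the variance. At an unadjusted p under 0.05 it was 3 of 7 (*Gabra3*, *Gabra5* and *Gabrd*), against 23.2% of all genes. The values of 4 of the 7 did not overlap between the groups, 3 of them lower and 1 higher in sgKcna1. Groups without overlap were found in 22.2% of all genes tested (8.98% higher and 13.3% lower) and in 39.8% of the 8050 genes with a mean of at least 10. The count depended on scaling, in a check chosen after the data were seen, and was 2 of 7 with median-of-ratios and upper-quartile factors (*Gabra5* and *Gabrd*, with 27.8% and 25.7% of all genes) and 3 of 7 with TMM factors (these and *Gabra3*, with 27.7% of all genes), where equal low values are no longer tied. The median log2 difference of the 7 was -0.15, and that of all genes tested was -0.02. Under other settings the count with an adjusted p under 0.05 was 1 (*Gabrd*) with median-of-ratios, upper-quartile or TMM scaling (8.81%, 10.6% and 9.29% of all genes). It was also 1 (*Gabrd*) for genes with a mean of at least 1 (11.3% of the genes tested). It was 1 (*Gabra5*) for genes with a mean of at least 10 (28.4%) and without sgLacZ replicate 3 (14.2%). With a robust variance it was 2 (*Gabra5* and *Gabrd*, 14.8%). It was again 0 of 7 with a pseudocount of 0.1 (3.21% of all genes), without the intensity trend of the variance (1.03%) and without Gm42418 (9.07%), the gene with the largest value in these libraries.

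**Figure D1:**
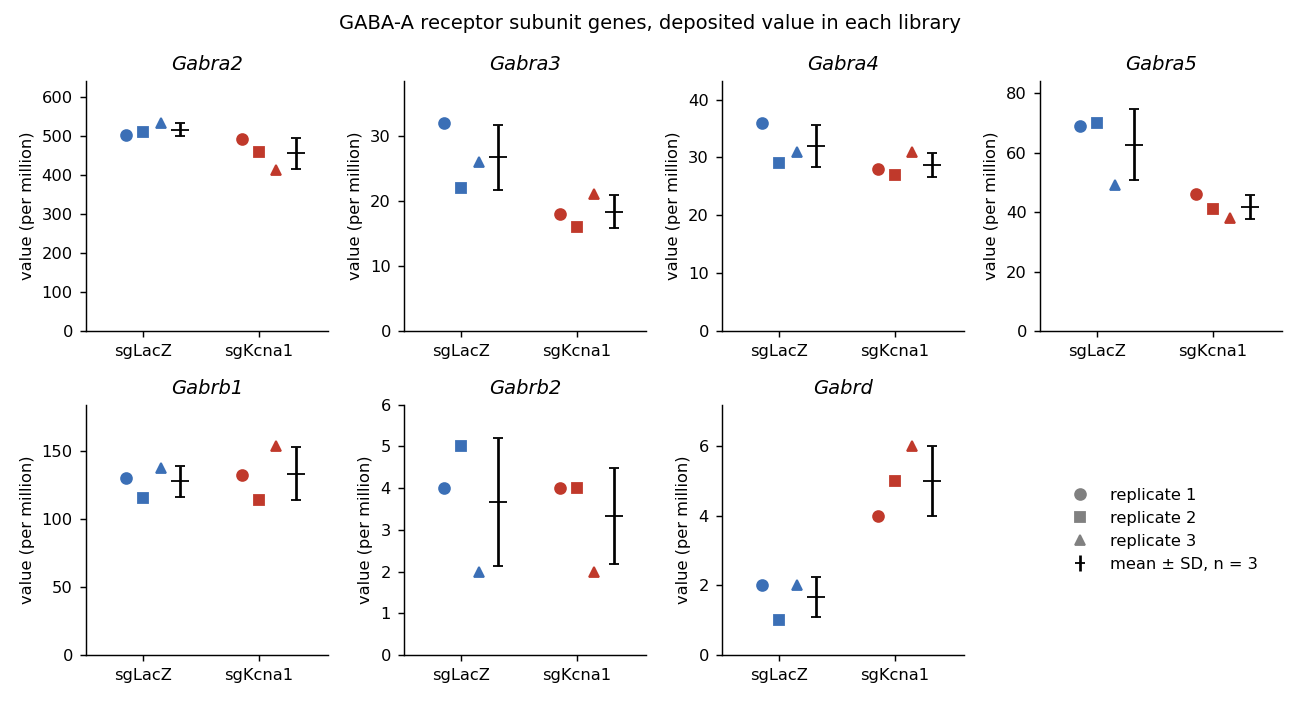
Deposited per-million value (vertical axes, each starting at 0 and scaled to its gene) of the 7 subunit genes in the 3 sgLacZ and 3 sgKcna1 libraries, with 1 symbol per library and the mean ± SD of each group. The sgKcna1 points lie below every sgLacZ point for *Gabra2*, *Gabra3* and *Gabra5* and above them for *Gabrd*, and the groups overlap for *Gabra4*, *Gabrb1* and *Gabrb2*.

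Among the alpha subunit genes, *Gabra2* had by far the highest value. Its protein is found at synapses of forebrain principal neurons, including those on the axon initial segment. *Gabra2* was listed at 503, 511 and 534 in the sgLacZ libraries and at 493, 459 and 414 in the sgKcna1 libraries. Every sgKcna1 library was below every sgLacZ library in the deposited values, the closest being 493 and 503, but the groups overlapped after median-of-ratios (478 to 526 in sgLacZ, 423 to 497 in sgKcna1), upper-quartile and TMM scaling. The means were 516 ± 16.1 (SD, n = 3) and 455 ± 39.6 (SD, n = 3), a log2 difference of -0.18 (standard error 0.09, adjusted p = 0.268 from limma). Its 95% interval ran from -0.40 to 0.03. The log2 difference was -0.10 with median-of-ratios or TMM factors, -0.06 with upper-quartile factors and -0.12 without sgKcna1 replicate 3.

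*Gabra5* encodes the alpha subunit known for tonic inhibition of hippocampal pyramidal neurons. It was listed at 69, 70 and 49 in sgLacZ and at 46, 41 and 38 in sgKcna1, so that the groups did not overlap but sgLacZ replicate 3 lay much nearer to the sgKcna1 libraries than to its own group. The means were 62.7 ± 11.8 (SD, n = 3) and 41.7 ± 4.04 (SD, n = 3), and the mean was 33.5% lower on the scale of the deposited values (-33.5% of the sgLacZ mean). The log2 difference was -0.56 (standard error 0.17, 95% interval -0.96 to -0.17), with an adjusted p of 0.0997 from limma. Without sgLacZ replicate 3 the log2 difference was -0.73 and the adjusted p from limma 0.0264, in a fit in which 14.2% of all genes passed. With any other single library left out, the adjusted p from limma ranged from 0.191 to 0.298.

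*Gabra3*, an alpha subunit gene that is expressed early in cortical development, was listed at 32, 22 and 26 in sgLacZ and at 18, 16 and 21 in sgKcna1. The groups did not overlap in the deposited values, where the closest, 21 and 22, were 1 unit apart, or with TMM factors, but did so with median-of-ratios and upper-quartile factors. The mean was 26.7 ± 5.03 (SD, n = 3) in sgLacZ and 18.3 ± 2.52 (SD, n = 3) in sgKcna1, with a log2 difference of -0.51 (standard error 0.18, adjusted p = 0.148 from limma). *Gabra4*, whose protein often joins the delta subunit in extrasynaptic receptors and lacks the classical benzodiazepine response, was listed at 36, 29 and 31 in sgLacZ and at 28, 27 and 31 in sgKcna1. These groups overlapped, and the log2 difference was -0.15 (95% interval -0.46 to 0.16, adjusted p = 0.513 from limma). For *Gabra4* it was -0.065 with median-of-ratios or TMM factors, -0.04 with upper-quartile factors and -0.07 without sgLacZ replicate 1. The log2 difference of *Gabra2*, *Gabra3*, *Gabra4* and *Gabra5* was negative under the other pseudocount, the 3 scalings, without Gm42418 and with each of the 6 libraries left out.

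The promoters of these 4 alpha genes are shown because these genes had log2 differences from -0.15 to -0.56 and their promoters differ widely in CG dinucleotides, which are written in capitals. Each run gives the 250 bases before a RefSeq transcription start in the build GRCm38.p6, 5′ to 3′ on the strand of the gene. RefSeq promoters were matched for 6 of the 7 genes (10 windows) and none for *Gabrd*.
Gabra2 (chr5:71095850-71096099, minus strand): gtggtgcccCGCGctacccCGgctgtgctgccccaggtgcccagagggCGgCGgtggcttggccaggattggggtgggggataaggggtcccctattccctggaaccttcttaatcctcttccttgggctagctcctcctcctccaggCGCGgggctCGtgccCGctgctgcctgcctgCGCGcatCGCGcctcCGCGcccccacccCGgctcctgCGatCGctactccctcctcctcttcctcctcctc
Gabra3 (chrX:72656920-72657169, minus strand): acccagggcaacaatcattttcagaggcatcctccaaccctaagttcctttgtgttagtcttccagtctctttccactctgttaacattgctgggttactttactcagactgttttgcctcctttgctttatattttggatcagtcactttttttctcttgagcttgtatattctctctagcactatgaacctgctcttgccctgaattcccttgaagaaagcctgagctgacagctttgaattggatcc
Gabra4 (chr5:71658309-71658558, minus strand): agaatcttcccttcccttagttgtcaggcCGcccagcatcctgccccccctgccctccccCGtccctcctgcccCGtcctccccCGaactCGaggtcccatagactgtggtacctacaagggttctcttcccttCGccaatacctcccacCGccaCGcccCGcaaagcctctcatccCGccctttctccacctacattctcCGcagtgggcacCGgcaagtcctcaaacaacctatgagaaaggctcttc
Gabra5 (chr7:57510060-57510309, minus strand): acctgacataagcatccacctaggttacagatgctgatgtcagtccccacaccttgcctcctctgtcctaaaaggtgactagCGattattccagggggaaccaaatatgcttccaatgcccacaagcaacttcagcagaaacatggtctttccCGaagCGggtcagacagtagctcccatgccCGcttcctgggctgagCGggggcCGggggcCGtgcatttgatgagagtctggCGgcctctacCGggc

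The *Gabra2* window held 18 CG dinucleotides and 70% G and C, the *Gabra4* window 12 and 61.2%, the *Gabra5* window 9 and 56.4%, and the *Gabra3* window 0 and 42.4%. Across 32841 windows of this length the median was 6 CG dinucleotides, and 7.86% of windows held none. At least as many CG dinucleotides as in the *Gabra2* window were found in 21.7% of windows. The TATA motif TATAAA, searched on both strands, was present in the *Gabra3* window shown, on the opposite strand, and in 12.4% of all windows. It was also present in a second *Gabra3* window and in a *Gabrb2* window, which are not shown. Neither the cAMP response element TGACGTCA nor the Egr motif GCGTGGGCG was found on either strand in the 10 windows of the family, and they occurred in 1.55% and 0.536% of all windows. A match, or its absence in this window, is a description and not a test of binding. The *Gabra5* window belongs to a start that lies within the span of the gene.

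The beta subunit genes encode the partners that complete the GABA binding site. *Gabrb1* was listed at 130, 115 and 137 in sgLacZ and at 132, 114 and 153 in sgKcna1. The groups overlapped widely, with a mean of 127 ± 11.2 (SD, n = 3) in sgLacZ and of 133 ± 19.5 (SD, n = 3) in sgKcna1. The log2 difference was 0.06 (standard error 0.13, adjusted p = 0.815 from limma), and its 95% interval, -0.26 to 0.37, leaves room for modest differences in either direction. *Gabrb2*, the beta subunit gene that becomes prominent in adult forebrain, was barely above 0 here, at 4, 5 and 2 in sgLacZ and at 4, 4 and 2 in sgKcna1. With so low a value rounding alone can move a library by 0.5, and the interval of the log2 difference (-0.94 to 0.76) was too wide to show a change of the size seen for *Gabra5*.

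*Gabrd* encodes the delta subunit, which in the hippocampus is known from dentate granule cells and from interneurons. It was listed at 2, 1 and 2 in sgLacZ and at 4, 5 and 6 in sgKcna1, higher in every sgKcna1 library. The means were 1.67 ± 0.577 (SD, n = 3) and 5 ± 1 (SD, n = 3), and the log2 difference was 1.18 (standard error 0.28, 95% interval 0.51 to 1.85), the largest of the 7 in size, with an adjusted p of 0.0633 from limma. The ratio of the means was 3, and rounding of each value by up to 0.5 allows ratios from 2.08 to 4.71. After median-of-ratios, upper-quartile or TMM scaling the adjusted p from limma was 0.0425, 0.0337 and 0.0400, in fits in which 8.81%, 10.6% and 9.29% of all genes passed. With 1 library left out the adjusted p from limma ran from 0.0509 to 0.185, above the threshold in each of the 6 fits. RefSeq places 6000 bases of *Gabrd* within the span of *Cfap74*, which was listed at 2, 1 and 2 in sgLacZ and at 1, 1 and 2 in sgKcna1. Whether the authors counted reads by strand is not given in the sources used here. *Prox1*, a marker of dentate granule cells, was listed at 146, 160 and 107 in sgLacZ and at 89, 101 and 75 in sgKcna1, lower where *Gabrd* was higher, and its part in the *Gabrd* values was not tested.

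The share of each gene in the summed values of the 7 does not depend on how a library was scaled. *Gabra2* made up 67.0% ± 1.92 (SD, n = 3) of this sum in sgLacZ and 66.4% ± 3.61 (SD, n = 3) in sgKcna1, ahead of *Gabrb1* with 16.5% ± 1.15 and 19.4% ± 3.13 (SD, n = 3). *Gabra5* made up 8.15% ± 1.64 and 6.07% ± 0.324 (SD, n = 3), and its highest sgKcna1 share, 6.34%, exceeded the lowest sgLacZ share, 6.27%, in replicate 3. *Gabra4* and *Gabra3* followed with 4.15% and 3.46% in sgLacZ and 4.19% and 2.68% in sgKcna1, and *Gabrb2* and *Gabrd* each stayed below 1%. Of the 7 shares, *Gabrd* alone separated the groups, at 0.258%, 0.133% and 0.256% against 0.552%, 0.751% and 0.902% (exact permutation test, two-sided, p = 0.1, below which 3 libraries against 3 cannot go). For the other 6 shares the exact permutation p ran from 0.2 to 1. The sum itself was 776, 753 and 781 in sgLacZ and 725, 666 and 665 in sgKcna1, lower in every sgKcna1 library. Unlike the shares it depends on scaling, and the groups overlapped with upper-quartile factors (704 to 784 in sgLacZ, 693 to 728 in sgKcna1) and with TMM factors. With median-of-ratios factors they stayed separate (734 to 769 in sgLacZ, 680 to 731 in sgKcna1).

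**Figure D2:**
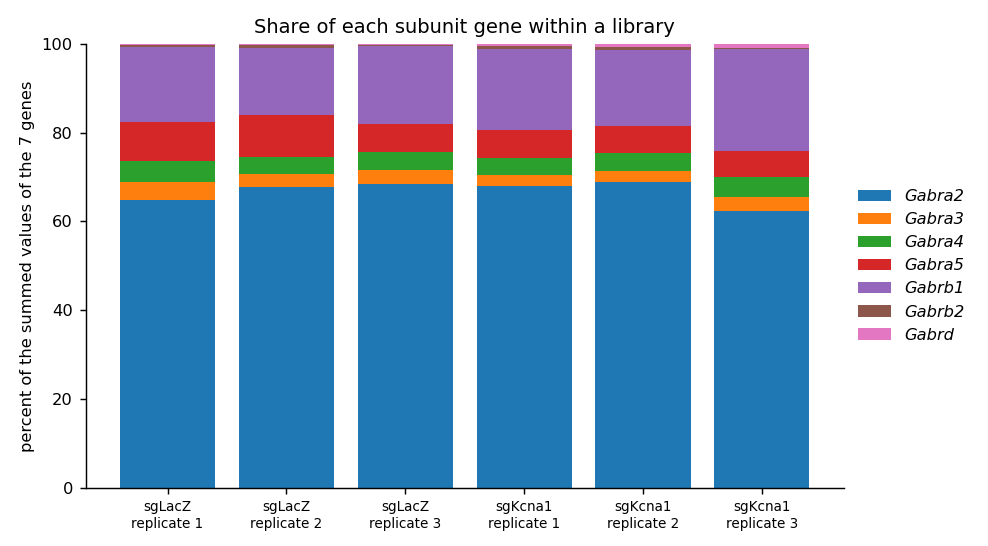
Percent of the summed values of the 7 subunit genes (vertical axis) taken by each gene in each of the 6 libraries, as stacked bars. *Gabra2* fills 62.3% to 68.9% of every bar and *Gabrb1* 15.3% to 23.0%, and the order of the larger blocks is the same in both groups.

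Levels of different genes can be ordered only roughly, since 3' tags of different transcripts are captured with different efficiency. In both groups the means ran *Gabra2*, *Gabrb1*, *Gabra5*, *Gabra4* and *Gabra3*, with *Gabrb2* and *Gabrd* at the bottom. In sgLacZ the neighbours *Gabra4* (29 to 36) and *Gabra3* (22 to 32) overlapped, as did *Gabrb2* (2 to 5) and *Gabrd* (1 to 2) at the value of 2. In sgKcna1 *Gabra4* (27 to 31) and *Gabra3* (16 to 21) no longer overlapped, and *Gabrd* (4 to 6) stood at or above *Gabrb2* (2 to 4).

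Of the other subunit genes in the files, *Gabrg1*, a gamma subunit gene, was listed at 5, 2 and 4 in sgLacZ and at 5, 2 and 3 in sgKcna1, and *Gabrg3*, another gamma subunit gene, at 8, 11 and 7 against 8, 5 and 8. Both had overlapping groups, with log2 differences of -0.11 and -0.28 and adjusted p of 0.881 and 0.513 from limma. *Gabrq* and *Gabrr2* were listed at 1 in a single library, and 5 further subunit genes were listed at 0 throughout.

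**Figure D3:**
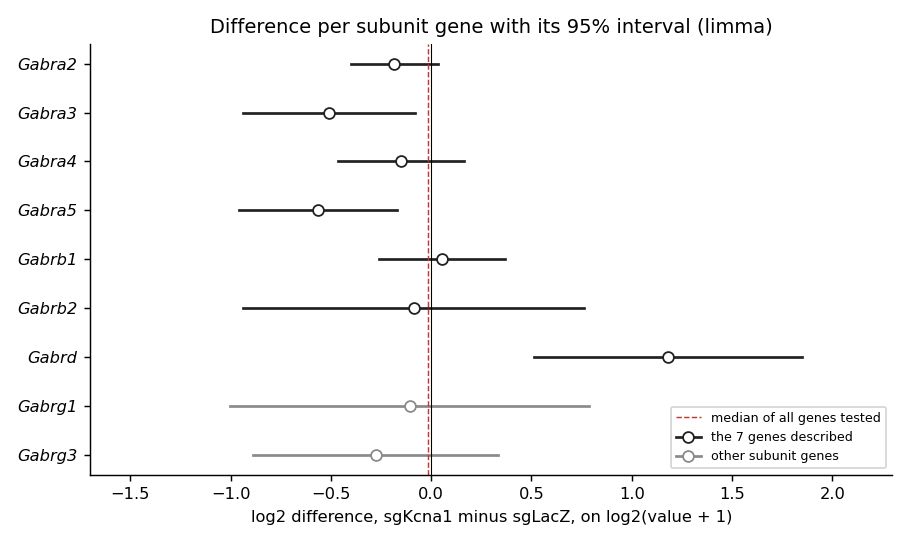
Log2 difference between sgKcna1 and sgLacZ on log2(value + 1) (horizontal axis) with its 95% interval for the 7 subunit genes (black) and the other subunit genes *Gabrg1* and *Gabrg3* (grey), where open symbols have an adjusted p of at least 0.05 from limma and the dashed line is the median of all genes tested. *Gabrd* lies at 1.18 and *Gabra5* at -0.56, and the interval of *Gabrb1* spans 0.

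Many subunit genes lie in clusters on the mouse chromosomes. In RefSeq (GRCm38.p6), *Gabra4* and *Gabrb1* on chromosome 5 are on opposite strands and overlap by 388 bases at their 5′ ends, and the groups overlapped for both genes. *Gabra2* lies on chromosome 5 as well and overlaps no other gene listed there. *Gabra3* lies on chromosome X, *Gabra5* on chromosome 7, *Gabrb2* on chromosome 11 and *Gabrd* on chromosome 4. How reads in overlapping genes were counted is not given in the sources used here.

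The genes that accompany the receptor at the inhibitory synapse were described in the same fit from lists fixed by name. Of 10 scaffold and auxiliary genes, 0 had an adjusted p under 0.05 from limma, 3 had an unadjusted p under 0.05 (1.16% and 23.2% of all genes tested), and the median log2 difference was -0.08. *Gphn*, which encodes gephyrin, the main scaffold of inhibitory synapses, was listed at 35, 33 and 30 in sgLacZ and at 20, 11 and 10 in sgKcna1. Its groups were separate, with a log2 difference of -1.26 (standard error 0.25, adjusted p = 0.0556 from limma). *Nlgn2*, the adhesion molecule of inhibitory synapses, was at 43, 41 and 45 against 49, 37 and 45. *Mdga1*, whose product restrains neuroligin 2, was higher in every sgKcna1 library, at 29, 42 and 51 against 63, 64 and 76 (adjusted p = 0.0865 from limma). *Shisa7*, an auxiliary subunit gene, was at 20, 19 and 32 against 44, 29 and 61, with groups that overlapped.

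Of 11 trafficking and anchoring genes, 0 passed with limma (1.16% of all genes tested) and 3 had an unadjusted p under 0.05 (23.2% of all genes), all lower. *Nsf*, the membrane fusion ATPase that also binds receptor beta subunits, was listed at 122, 117 and 105 in sgLacZ and at 87, 69 and 73 in sgKcna1 (log2 difference -0.58, adjusted p = 0.0556 from limma). *Rdx*, the gene of the alpha5 anchor radixin, was at 190, 221 and 223 against 208, 190 and 221, with overlapping groups. *Gabarap*, named for its binding to the receptor, was at 178, 177 and 190 against 162, 163 and 198. *Ubqln1* and *Gabarapl2* had log2 differences of -0.30 and -0.45, with adjusted p of 0.148 and 0.146 from limma.

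Of 8 genes of GABA synthesis, packing, uptake and breakdown, 0 passed with limma (1.16% of all genes tested), 3 had an unadjusted p under 0.05 (23.2% of all genes) and the median log2 difference was -0.31. *Gad1*, a GABA-synthesising enzyme gene, was at 26, 31 and 21 in sgLacZ and at 15, 17 and 18 in sgKcna1, *Slc32a1*, the vesicular GABA transporter gene, at 42, 37 and 34 against 27, 31 and 21, and *Abat*, which breaks GABA down, at 15, 15 and 15 against 7, 8 and 11. These 3 genes had separate groups, as did 22.2% of all genes tested and 39.8% of those with a mean of at least 10, whereas *Gad2*, the second synthesising enzyme gene, was at 14, 13 and 26 against 16, 15 and 19. Summed inhibitory neuron markers, which include *Gad1*, *Gad2* and *Slc32a1*, overlapped between the groups (210 to 228 in sgLacZ, 202 to 242 in sgKcna1, 7 genes with *Pvalb* at 0 throughout). *Sst* made up most of this sum, at 135, 123 and 114 against 126, 121 and 161, while *Npy* was higher in every sgKcna1 library, at 10, 11 and 15 against 17, 25 and 20. The part of the cell mix in these values was not tested.

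The chloride cotransporter genes *Slc12a5* and *Slc12a2*, which set the driving force of the receptor, had log2 differences of -0.46 and -0.13, with adjusted p of 0.271 and 0.513 from limma. Of 5 GABA-B receptor genes, which act through G proteins, 4 could be tested and 0 passed (1.16% of all genes tested), 2 (*Gabbr1* and *Kctd12*) with an unadjusted p under 0.05 (23.2% of all genes). *Gabbr1* was listed at 335, 346 and 538 in sgLacZ and at 636, 609 and 640 in sgKcna1 (log2 difference 0.66, adjusted p = 0.0847 from limma), and sgLacZ replicate 3 again lay nearest to the sgKcna1 libraries. *Kctd12*, an auxiliary subunit gene of the receptor, was at 92, 80 and 63 against 64, 42 and 52, with groups that overlapped (log2 difference -0.57, adjusted p = 0.140 from limma). *Gabbr2*, the partner of *Gabbr1*, was at 62, 70 and 60 against 59, 53 and 56, lower in each sgKcna1 library but with an adjusted p of 0.336 from limma.

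**Figure D4:**
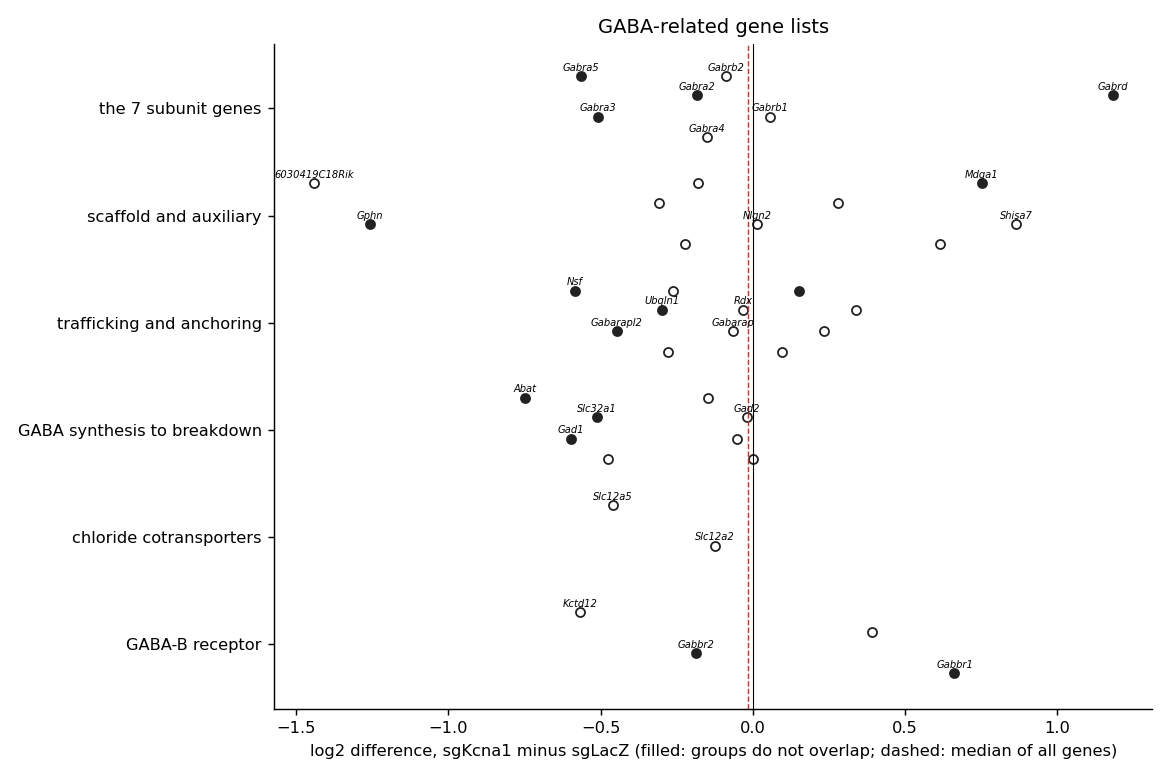
Log2 difference between sgKcna1 and sgLacZ (horizontal axis) of each gene tested in the 7 subunit genes and the 5 lists of GABA-related genes (rows), with names for the genes given in the text, filled symbols where the groups do not overlap in the deposited values and a dashed line at the median of all genes tested, -0.02. The points spread to both sides, from -1.44 (6030419C18Rik, an older symbol of Insyn1) to 1.18 (*Gabrd*).

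For each subunit gene, the gene with the most similar values was sought among those with a mean of at least 10, by Pearson's r of log2(value + 1) over the 6 libraries, which share their scaling. These were *Naca* for *Gabra2*, *Sc5d* for *Gabra3*, *Taf5* for *Gabra4*, *Ubtf* for *Gabra5*, *Slc25a12* for *Gabrb1*, *Ttll5* for *Gabrb2* and *Speg* for *Gabrd*, with r from 0.974 to 0.999. The closest, *Ubtf*, was at 131, 134 and 93 in sgLacZ and at 87, 79 and 74 in sgKcna1, with the same gap between sgLacZ replicate 3 and its group as *Gabra5*. With at least 8049 candidates and 6 libraries such values describe these libraries alone.

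**Figure D5:**
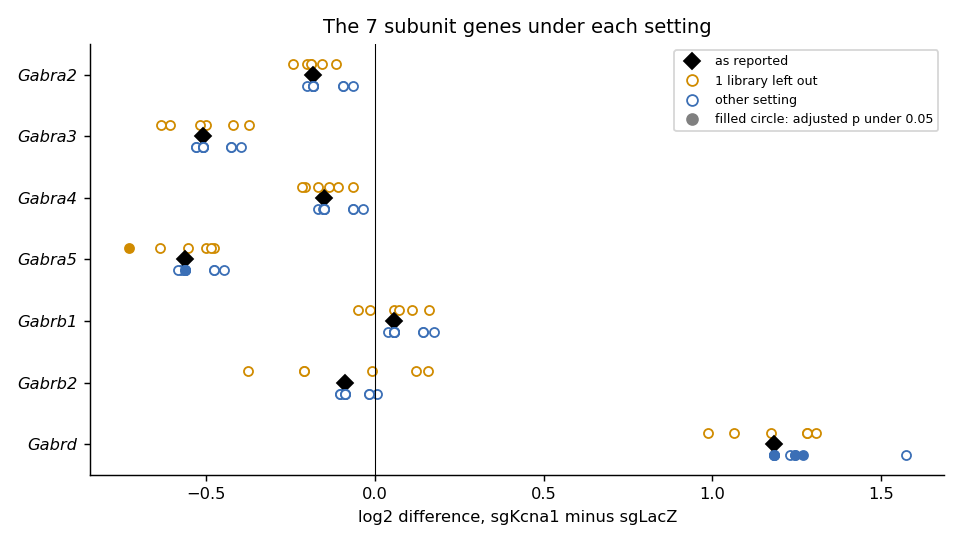
Log2 difference between sgKcna1 and sgLacZ (horizontal axis) of the 7 subunit genes as reported (diamonds), with each library left out (upper circles) and under the other settings (lower circles). Circles are filled where the adjusted p from limma was under 0.05. Diamonds are filled whatever their adjusted p, which was above 0.05 for each of the 7. *Gabra5* (-0.73 to -0.45) and *Gabrd* (0.99 to 1.57) keep their side of 0, whereas *Gabrb1* (-0.05 to 0.17) and *Gabrb2* (-0.38 to 0.16) cross it.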

How the data were processed

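RNA from 3 sgLacZ and 3 sgKcna1 cultures was made into QuantSeq 3' FWD libraries. Each deposited file pairs a gene symbol with 1 score, always a whole number. From the totals, and because the variance between replicates averaged only 0.705 (sgLacZ) and 0.504 (sgKcna1) times the mean for genes with means from 4 to 8, this score was read as a per-million value rounded by the authors, which no source used here states. The submitters' processing notes name STAR 2.7, featureCounts, DESeq2 and mm10, whereas the paper's methods name Bowtie2 and NCBI37/mm9. Annotation, strand setting and scaling are not given in the sources used here.

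Groups came from the sample titles. Genes above 0 in at least 1 library were fitted with limma 3.58.1 in R 4.3.3 (lmFit, eBayes with an intensity trend) on log2(value + 1) by group, with Benjamini-Hochberg adjustment over 19504 genes and a threshold of 0.05. The pseudocount shrinks differences of low genes. Subunit genes, gene lists and tests were chosen with earlier results of these data known. Genes were named by rule: the 7 subunit genes, *Kcna1*, other subunit genes with a mean above 1, listed genes with an adjusted p under 0.05 or up to 4 per list with the smallest p, and the most similar gene of each subunit gene. *Cfap74*, *Gabrq*, *Gabrr2*, *Nlgn2*, *Rdx*, *Gabarap*, *Gad2*, *Gfap*, *Aldh1l1* and *Mbp* were named after their values were seen. Some genes that this rule names are not reported here, and are left out of the lists and plots of single genes. Insyn1 and Insyn2a were found under older symbols through RefSeq synonyms. The fit was tested on simulated data of this comparison with 200 genes among 18580 changed by 1.5 on the log2 scale, of which 191 were recovered with 2 false calls. The changed genes had a mean of at least 10, and the simulated noise was independent between libraries. How often smaller differences, or differences at values as low as those of *Gabrb2* and *Gabrd*, would be found was not tested. Alternatives covered the pseudocount, low-value filters, scaling, Gm42418 (15.3% to 20.2% of a library), the variance model, the replicate block and each library left out. Promoters and overlaps came from RefSeq (GRCm38.p6), and strands from GENCODE vM1.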

Additional observations from a re-analysis of the deposited data

How the results depend on the processing

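Over all genes, 226 passed the adjusted threshold as reported, and the count was 627 with a pseudocount of 0.1, 1543 and 2289 for genes with a mean of at least 1 and 10, 1719, 2058 and 1811 with median-of-ratios, upper-quartile and TMM factors, 1768 without Gm42418, 2884 with a robust variance and 0 with the replicate block. With 1 library left out it ranged from 0 to 2711, and it was above 0 only without sgLacZ replicate 3. The cause was not tested.

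The number of subunit genes past the threshold, 0 of 7 as reported, was 1 (*Gabrd*) for genes with a mean of at least 1 and with median-of-ratios, upper-quartile or TMM factors, 1 (*Gabra5*, with 5 subunit genes tested) for genes with a mean of at least 10, 2 (*Gabra5* and *Gabrd*) with a robust variance, and 0 to 1 with 1 library left out. In these fits 11.3% (mean of at least 1), 28.4% (mean of at least 10) and 14.8% (robust variance) of the genes tested passed, and 14.2% without sgLacZ replicate 3. With median-of-ratios, upper-quartile and TMM factors 8.81%, 10.6% and 9.29% passed. The median log2 difference of the 7 lay between -0.21 and -0.035, where the variance model, the block and the filter at a mean of 1 cannot move it. *Gabrb2* had a log2 difference of 0.0056 with upper-quartile factors and from -0.38 to 0.16 with 1 library left out, *Gabrb1* from -0.0496 to 0.16 and *Gabrg1* from -0.40 to 0.13. *Kcna1* ranged from 1.73 to 1.99 with 1 library left out, where it passed only without sgLacZ replicate 3 (adjusted p = 0.0186 from limma, otherwise 0.112 to 0.144).

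The difference in share, sgKcna1 minus sgLacZ, was -0.627 percentage points for *Gabra2* and became 1.69 when the sum of all subunit genes was the denominator, and ranged from -1.89 to 1.44 with 1 library left out. It ranged from -0.195 to 0.282 for *Gabra4* and from -0.105 to 0.0986 for *Gabrb2*, also changing sign, and kept its sign for the other 4 genes.

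Replicate numbers come from the labels. Libraries with the same number had deviations from their group means that correlated at 0.0143, 0.114 and 0.154 (mean 0.094). Between libraries with different numbers these correlations ran from -0.156 to 0.0989 (mean -0.046). Whether the numbers mark a pairing was not tested. In a fit with the replicate block, *Kcna1* had a log2 difference of 1.83 with an adjusted p of 0.111 from limma, *Gabra5* -0.56 with 0.125 and *Gabrd* 1.18 with 0.131. Read depth is unknown, and for *Gabrb2* and *Gabrd* rounding to whole units limits the precision.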
